A study of Mus musculus with 9 samples.

Results

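FOXM1, the MYB-like proteins A-MYB and B-MYB, and the MuvB core form a transcription switch for the cell cycle. Transcripts of 7 genes were followed in regenerating mouse liver: *Foxm1*, *Mybl1* (A-MYB), *Mybl2* (B-MYB), *Lin9*, *Lin37*, *Lin52* and *Lin54*. They were chosen by gene name and are 7 of the 43346 genes in the count table. Each name had 1 row, and all 7 passed the filter on low counts, which kept 15024 genes.

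Whole liver of 12-week-old male C57/BL6 WT mice was profiled by bulk RNA-Seq in 9 libraries, with 3 per group. Baseline samples (0 h) were the pieces resected at 70% partial hepatectomy from mice that received vehicle, which was normal saline. Remnants were taken 40 h after the same operation from mice given vehicle or NSC87877 (NSC). NSC inhibits the phosphatases SHP1 and SHP2, and was injected i.p. at 7.5 mg/kg per dose (15 mg/kg/day). By the sample records, dosing of either kind began 12 h before surgery and went on until euthanasia, whereas the methods place its start 1 day before. No baseline liver from NSC-treated mice was analysed here. Each 40 h group was set against the 3 vehicle baselines, so these comparisons share their controls. All groups were WT, and no allele was altered. Nothing in the records ties a baseline piece to a remnant of 1 mouse by its number, and p-values measure the spread between these libraries, which may be technical in part.

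In quiescent cells, the MuvB proteins LIN9, LIN37, LIN52, LIN54 and RBBP4 join p130 or p107, E2F4 or E2F5 and DP1 in the DREAM complex, which represses cell cycle genes. When cells enter the cycle, MuvB leaves the pocket proteins and binds B-MYB and later FOXM1, and these complexes activate the genes of G2 phase and mitosis. Hepatocytes of the adult liver are mostly quiescent and re-enter the cycle after partial hepatectomy. Much of this switch runs through protein phosphorylation and degradation, which RNA-Seq does not measure.

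Depth was 23997363 to 42887589 assigned fragments per library, so that 3 counts corresponded to 0.07 to 0.125 CPM, which is the count relative to the size of the library. Hepatocyte markers were abundant throughout, with all 8 of 8 tested and summed levels of 117000 to 123400 CPM at baseline, 90970 to 128000 CPM with vehicle and 94090 to 112600 CPM with NSC at 40 h. Cholangiocyte markers summed to 37.8 to 40.6 CPM at baseline and 76.0 to 121.5 CPM in the remnants. The sums were 175.4 to 212.5 CPM and 213.5 to 366.9 CPM for stellate markers, and 225.3 to 326.9 CPM and 105.3 to 230.2 CPM for erythroid markers. Their part in the changes from baseline was not tested. NSC replicate 1 stood apart from the other NSC libraries in many of the genes described here, and the results that rest on it are given with and without it. Its summed macrophage markers (7 of 8 listed genes tested, none at 0 in every library) reached 457.1 CPM, against 285.6 to 298.6 CPM in the other NSC libraries, 143.4 to 262.4 CPM with vehicle at 40 h and 146.1 to 212.5 CPM at baseline. Its sinusoidal endothelial markers (6 of 6 tested) summed to 225.5 CPM, against 127.4 to 143.2 CPM in the other NSC libraries. Their part in the results was not tested. In whole liver, fewer cells that express a gene and less RNA of it per cell cannot be told apart.

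Promoter sequence from RefSeq (GRCm38.p6) was on hand for 4 of the 7 genes, in 5 windows, and the 250 bases before each start are shown because MuvB and E2F complexes reach their targets through short promoter elements. Capitals mark matches on either strand to the cell cycle homology region (CHR: TTTGAA or TTCGAA), to E2F words (TTTCCCGC, TTTCGCGC, TTTGCCGC or TTTGGCGC) and to the CCAAT box (CCAAT, which reads ATTGG on the other strand). The windows are chr2:163054385-163054634 (plus strand) for *Mybl2*, chr7:30559647-30559896 (minus strand) for *Lin37*, chr12:84451258-84451507 (plus strand) for *Lin52*, and chr5:100500640-100500889 and chr5:100498574-100498823 (minus strand) for the outer and the inner start of *Lin54*.
Mybl2: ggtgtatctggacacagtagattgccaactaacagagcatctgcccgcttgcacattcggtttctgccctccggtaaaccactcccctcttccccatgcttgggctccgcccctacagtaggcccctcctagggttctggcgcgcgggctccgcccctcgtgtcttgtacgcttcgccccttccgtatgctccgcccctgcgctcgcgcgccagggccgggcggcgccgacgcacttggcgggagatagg
Lin37: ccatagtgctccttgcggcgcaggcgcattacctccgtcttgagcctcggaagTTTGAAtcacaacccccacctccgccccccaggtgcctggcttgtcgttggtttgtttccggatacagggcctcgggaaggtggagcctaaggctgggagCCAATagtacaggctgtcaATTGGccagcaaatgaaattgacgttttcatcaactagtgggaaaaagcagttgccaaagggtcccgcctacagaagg
Lin52: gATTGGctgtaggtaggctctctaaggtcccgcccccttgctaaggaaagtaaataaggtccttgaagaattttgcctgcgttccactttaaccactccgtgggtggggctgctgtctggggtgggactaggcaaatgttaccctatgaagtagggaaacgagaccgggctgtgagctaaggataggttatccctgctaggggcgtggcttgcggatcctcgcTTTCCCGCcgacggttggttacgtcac
Lin54, outer start: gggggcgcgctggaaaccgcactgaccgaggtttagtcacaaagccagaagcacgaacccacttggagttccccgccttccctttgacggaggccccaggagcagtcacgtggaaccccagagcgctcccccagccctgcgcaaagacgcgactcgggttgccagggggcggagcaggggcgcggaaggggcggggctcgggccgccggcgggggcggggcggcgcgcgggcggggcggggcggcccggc
Lin54, inner start: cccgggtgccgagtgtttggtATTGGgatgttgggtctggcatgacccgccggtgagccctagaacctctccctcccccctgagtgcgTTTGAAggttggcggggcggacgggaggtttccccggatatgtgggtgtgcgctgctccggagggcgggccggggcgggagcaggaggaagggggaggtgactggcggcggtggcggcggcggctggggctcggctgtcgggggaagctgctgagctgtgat

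A CHR word lay 192 to 197 bases before the RefSeq start of *Lin37* and 157 to 162 bases before the inner start of *Lin54*. In the coordinates of the count table, *Lin37* starts at 30559838, within its window. By those coordinates its CHR word is at the start and its CCAAT boxes are inside the gene. Such a word was in 17.1% of the 32851 windows of the same length. The *Lin52* window held the E2F word TTTCCCGC 20 to 27 bases before the start, and any of the 4 E2F words was in 1.86% of windows. CCAAT boxes were found once in *Lin52*, once before the inner start of *Lin54* and at 2 places in *Lin37*, against 33.8% of windows with at least 1. The MYB word AACNG, which 74.2% of windows held, was in every window shown except that of the inner *Lin54* start, and overlapped none of the marked words. The forkhead word TGTTTAC was in none of the 5 windows and in 3.17% of all windows. The *Mybl2* and outer *Lin54* windows had no CHR, E2F or CCAAT match to these letters. Only these words were searched, so a window without a match may still hold such an element in another spelling. These matches describe sequence only, since no binding was measured.

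After hepatectomy with vehicle, *Foxm1* and *Mybl1* rose from near the limit of detection to substantial levels, and *Lin54* rose 1.91-fold, whereas *Mybl2*, *Lin9*, *Lin37* and *Lin52* did not pass the test. The remnants with NSC showed the same 3 increases, and in addition *Lin9* and *Lin52* were called higher than baseline. No member was called between NSC and vehicle at 40 h. Calls were made at an adjusted p under 0.05 in edgeR's quasi-likelihood test with Benjamini-Hochberg adjustment over 15024 genes. With vehicle, 3 of 7 members rose, and 23.7% of all tested genes were called in that comparison. With NSC, 5 of 7 rose, beside 34.7% of all tested genes. With a log2 fold change over 1.5 as a further condition, 2 members rose with vehicle (5.03% of tested genes) and 4 with NSC (5.38%). Among the latter, *Lin54* (log2 1.56) was close to that limit, and it was at 1.41 without NSC replicate 2. Levels lay above baseline without overlap for 5 members with vehicle (24.2% of tested genes) and 4 with NSC (24.0%). Without NSC replicate 1 the members called were 4 with vehicle (29.5% of tested genes) and 6 with NSC (33.7%), and without baseline replicate 2 they were 5 with vehicle (18.9%). The median log2 fold change of the members was 1.05 with vehicle and 1.56 with NSC, and that of all tested genes was 0.01 in both.

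**Figure D1:**
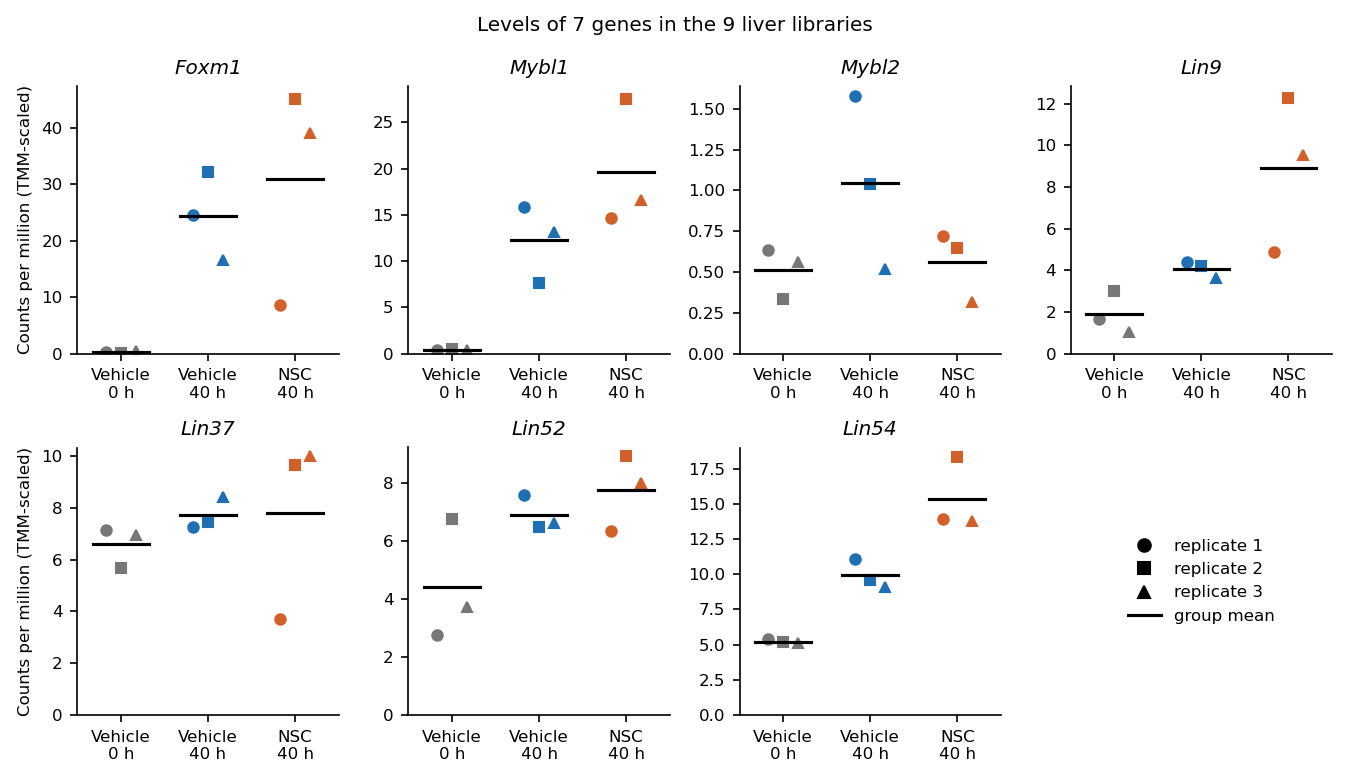
Each panel plots 1 gene in CPM with TMM scaling (linear axis from 0) for the 9 libraries. Points are libraries, with the shape giving the replicate number, and bars are group means. *Foxm1*, *Mybl1* and *Lin54* are above baseline in all 6 remnants, *Mybl2* stays at or under 1.58 CPM throughout, and NSC replicate 1 (8.52 CPM) is the lowest remnant for *Foxm1*.

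*Foxm1* encodes the forkhead factor that activates genes of G2 phase and mitosis. The gene lies on chromosome 6 (128362967 to 128375893, plus strand, in the coordinates of the count table). At baseline its levels were 0.316, 0.0611 and 0.429 CPM in replicates 1 to 3, from 10, 2 and 13 counts. In the vehicle remnants they were 24.5, 32.1 and 16.5 CPM. With NSC they were 8.52, 45.1 and 39.0 CPM. Every remnant lay above every baseline library, while the NSC values fell on both sides of the vehicle values. The increase was 90.7-fold with vehicle (log2 6.50 ± 0.86, SE, n = 3 per group, adjusted p = 0.00202, edgeR quasi-likelihood) and 115-fold with NSC (log2 6.84 ± 0.87, adjusted p = 0.00111, same test). Because the baseline rests on 25 counts in all, the size of these folds is less certain than their direction, and the 95% confidence interval of the first runs from 4.50 to 8.51 on the log2 scale. NSC and vehicle differed by 0.34 on the log2 scale (95% confidence interval -1.05 to 1.73, adjusted p = 0.791, edgeR), or by 0.78 without NSC replicate 1 and -0.04 without NSC replicate 2.

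*Foxm1* has close neighbors on its chromosome. *Rhno1*, which encodes a checkpoint protein of the DNA damage response, starts 56 bases away on the opposite strand, and its spans do not overlap those of *Foxm1*. *Rhno1* rose 2.01-fold with vehicle (log2 1.01 ± 0.27, adjusted p = 0.0179) and 2.42-fold with NSC (log2 1.27 ± 0.27, adjusted p = 0.00386), both by edgeR's quasi-likelihood test. At the other end, 438 bases are shared on the same strand with *4933413G19Rik*, whose counts were 2, 0 and 0 at baseline, 31, 48 and 17 with vehicle and 12, 79 and 54 with NSC. These counts were lowest and highest in the same NSC libraries as those of *Foxm1*, and reads in the shared stretch cannot be told apart between the genes.

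The MYB-like genes differed. *Mybl1* encodes A-MYB, a factor best known from male germ cells, and lies on chromosome 1 (9667415 to 9700209, minus strand). Its levels were 0.411, 0.458 and 0.429 CPM at baseline, with 13, 15 and 13 counts. They were 15.9, 7.62 and 13.2 CPM in the vehicle remnants. With NSC they were 14.6, 27.6 and 16.6 CPM. All remnants exceeded baseline, and vehicle replicate 2 was the lowest of them. The increase was 28.0-fold with vehicle (log2 4.81 ± 0.37, adjusted p = 1.98e-05, edgeR) and 44.9-fold with NSC (log2 5.49 ± 0.37, adjusted p = 5.35e-06, edgeR). The adjusted p stayed at or under 0.000353 in every alternative run for these increases. The difference between NSC and vehicle was 0.68 on the log2 scale (95% confidence interval 0.07 to 1.30), with an adjusted p of 0.219, and the groups overlapped. It was 0.25 after correction for GC content, which was 37.0% for *Mybl1* against a median of 49.7% of tested genes.

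*Mybl2* encodes B-MYB, the partner that gives the MYB-MuvB complex its name, and lies on chromosome 2 (163054687 to 163084688, plus strand). It was measured at 0.632, 0.336 and 0.561 CPM at baseline. The vehicle remnants had 1.58, 1.04 and 0.517 CPM. The NSC remnants had 0.720, 0.645 and 0.313 CPM. The groups overlapped in all 3 comparisons, and the counts behind these values were 8 to 63 per library. With vehicle the log2 difference from baseline was 1.05 (95% confidence interval 0.01 to 2.09, adjusted p = 0.133), and with NSC it was 0.15 (-0.94 to 1.24, adjusted p = 0.837). NSC against vehicle gave -0.90 (-1.94 to 0.14, adjusted p = 0.315). By name B-MYB is the MYB factor of the MuvB switch, whereas *Mybl1*, for A-MYB, was the MYB transcript called higher than baseline. *Mybl2* was not called, but at these low counts its interval with vehicle (0.01 to 2.09) leaves an increase possible.

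Set per gene length, in the deposited FPKM values, which take gene length into account, the ratio of *Mybl1* to *Mybl2* was 0.557, 1.17 and 0.656 at baseline. It was 8.64, 6.30 and 21.9 in the vehicle remnants. With NSC it was 17.4, 36.6 and 45.5. Each remnant had a higher ratio than each baseline library, and the 2 remnant groups overlapped. GC content was 37.0% for *Mybl1* and 56.3% for *Mybl2*. FPKM does not correct for it, and its part in this ratio was not tested. With 3 libraries against 3, the exact two-sided permutation test cannot give a p below 0.1, which was the value for both comparisons with baseline (0.218 after adjustment over 24 ratio comparisons). The third gene of the family, *Myb*, was at 0 to 0.1 CPM in each library and did not pass the filter.

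**Figure D2:**
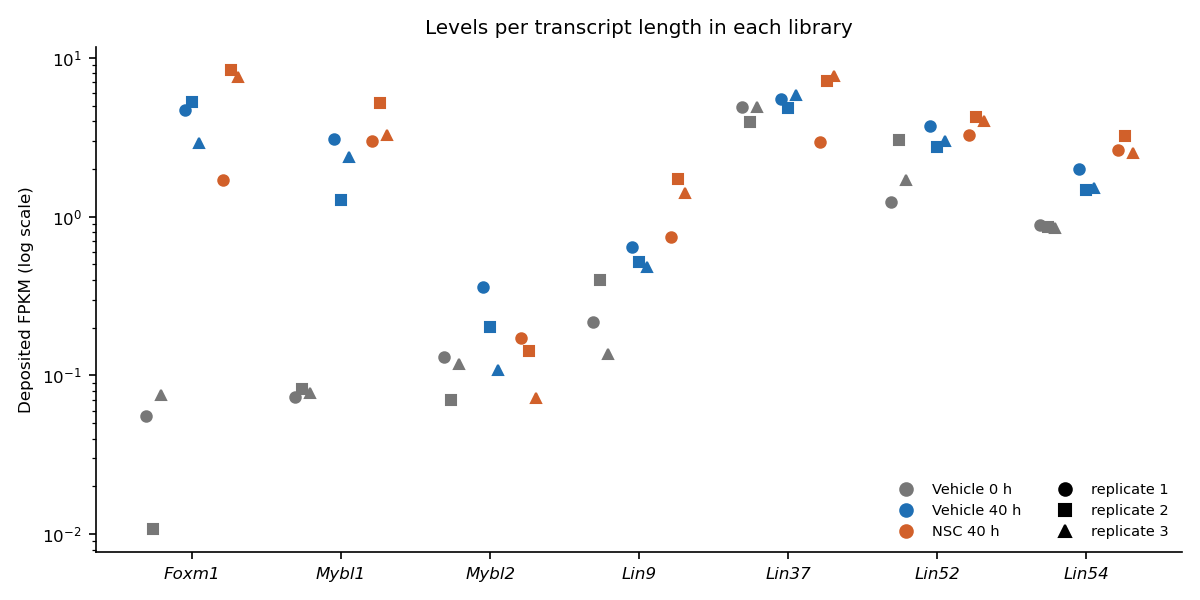
Deposited FPKM of the 7 genes on a log axis, with 1 point per library, color for the group and shape for the replicate number. *Lin37* had the highest mean at baseline (4.58 FPKM), while *Foxm1* went from the lowest mean there (0.0472 FPKM) to 4.29 FPKM with vehicle and 5.88 FPKM with NSC at 40 h.

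Per length, the baseline order was *Lin37* (4.58 ± 0.55 FPKM, SD, n = 3), *Lin52* (1.99 ± 0.95), *Lin54* (0.863 ± 0.020), *Lin9* (0.251 ± 0.134), *Mybl2* (0.106 ± 0.032), *Mybl1* (0.0773 ± 0.0044) and *Foxm1* (0.0472 ± 0.0333). The first 4 kept that order in each baseline library. *Mybl1* and *Mybl2* changed places between libraries, and *Foxm1* was last in all 3. Against all tested genes, the baseline mean of *Lin37* stood at percentile 60.9 and that of *Foxm1* at percentile 2.57. In the remnants *Foxm1* stood at percentile 58.9 with vehicle and 64.1 with NSC, and *Mybl1* at 43.7 and 54.0. *Lin37*, *Foxm1*, *Lin52*, *Mybl1* and *Lin54* then traded ranks from library to library, whereas *Lin9* came sixth and *Mybl2* last in all 6 remnants.

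Against baseline, the MuvB core genes had smaller fold changes than *Foxm1* and *Mybl1*. *Lin54* encodes the subunit that binds DNA at the CHR and lies on chromosome 5 (100441918 to 100500639, minus strand). Its levels were 5.37, 5.16 and 5.08 CPM at baseline. The vehicle remnants had 11.1, 9.56 and 9.12 CPM. The NSC remnants had 13.9, 18.3 and 13.8 CPM. The 3 groups did not overlap, in the order baseline, vehicle, NSC. *Lin54* rose 1.91-fold with vehicle (log2 0.93 ± 0.17, adjusted p = 0.00286, edgeR) and 2.95-fold with NSC (log2 1.56 ± 0.17, adjusted p = 0.000108, edgeR).

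*Lin9* encodes the scaffold subunit through which MuvB contacts B-MYB, and lies on chromosome 1 (180641150 to 180690694, plus strand). It had 1.64, 2.99 and 1.02 CPM at baseline. The vehicle remnants had 4.40, 4.20 and 3.62 CPM. The NSC remnants had 4.89, 12.3 and 9.55 CPM. The groups did not overlap in any comparison, although NSC replicate 1 was close to the vehicle libraries. With NSC the increase was 4.70-fold (log2 2.23 ± 0.40, adjusted p = 0.00182, edgeR). With vehicle it was 2.15-fold and missed the threshold (log2 1.11 ± 0.40, adjusted p = 0.0638, edgeR), and it passed without baseline replicate 2 (log2 1.61, adjusted p = 0.0149) and without NSC replicate 1 (log2 1.11, adjusted p = 0.019).

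*Lin52* encodes the small subunit whose phosphorylation favors binding of p130 or p107, and lies on chromosome 12 (84451508 to 84531533, plus strand). Baseline levels were 2.75, 6.78 and 3.73 CPM, and baseline replicate 2 lay within the range of the remnants. The vehicle remnants had 7.58, 6.51 and 6.64 CPM. The NSC remnants had 6.36, 8.93 and 8.02 CPM. Its call with NSC was at the threshold (log2 0.81 ± 0.29, adjusted p = 0.0491, edgeR) and was lost after GC correction (log2 0.42, adjusted p = 0.312), with relative log expression factors (adjusted p = 0.0507) and when any of 7 libraries was left out. With vehicle the log2 difference was 0.64 ± 0.29 (adjusted p = 0.131, edgeR), and it was 1.09 with an adjusted p of 0.0115 without baseline replicate 2. *Aldh6a1*, which encodes a mitochondrial dehydrogenase, starts 558 bases from *Lin52* on the opposite strand and fell by 0.97 ± 0.15 with vehicle (adjusted p = 0.000949) and 0.87 ± 0.15 with NSC (adjusted p = 0.00116, edgeR). The microRNA genes *Mir7003*, within *Mybl2*, and *Gm23222*, within *Lin54*, had 0 counts in all libraries.

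*Lin37* encodes the subunit needed for repression by DREAM, and lies on chromosome 7 (30555441 to 30559838, minus strand). It had 7.14, 5.68 and 6.96 CPM at baseline. The vehicle remnants had 7.28, 7.46 and 8.42 CPM. The NSC remnants had 3.72, 9.64 and 10.02 CPM. NSC replicate 1 was the lowest of all 9 libraries and the other NSC libraries were the highest. *Lin37* did not pass the test with vehicle (log2 0.23, 95% confidence interval -0.44 to 0.89, adjusted p = 0.636) or with NSC (log2 0.24, -0.43 to 0.91, adjusted p = 0.574). Without NSC replicate 1 the difference between NSC and baseline was 0.58 on the log2 scale, with an adjusted p of 0.0294. Its 3′ end overlaps *Hspb6* by 3 bases on the opposite strand.

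Ratios among the core transcripts were compared within each library. Per length, *Lin54* was 0.180, 0.217 and 0.174 of *Lin37* at baseline. It was 0.363, 0.306 and 0.259 of it with vehicle. With NSC it was 0.893, 0.454 and 0.328. Each remnant lay above each baseline library, and the remnant groups overlapped (exact two-sided permutation p = 0.1 for each comparison with baseline, the smallest possible, and 0.2 between remnants, which is 0.218 and 0.320 after adjustment over the 24 ratio comparisons). *Lin9* was 0.0282 to 0.101 of *Lin37* at baseline, 0.0824 to 0.116 with vehicle and 0.183 to 0.252 with NSC, and the NSC libraries lay above the other 6, while vehicle and baseline overlapped (exact permutation p = 0.2). *Lin52* to *Lin37* overlapped baseline in both remnant groups (0.249 to 0.773 at baseline, 0.511 to 0.674 with vehicle and 0.518 to 1.11 with NSC), as did *Lin9* to *Lin54* (0.162 to 0.466, 0.319 to 0.353 and 0.282 to 0.557). The highest NSC ratios to *Lin37* (0.893 for *Lin54*, 0.252 for *Lin9* and 1.11 for *Lin52*) were those of replicate 1. *Lin37* was lowest there (3.72 CPM, against 9.64 and 10.02 CPM). NSC replicates 2 and 3 had 0.454 and 0.328 for *Lin54*, 0.244 and 0.183 for *Lin9*, and 0.600 and 0.518 for *Lin52*. GC content was 56.3% for *Lin37*, 41.8% for *Lin54*, 42.5% for *Lin9* and 44.3% for *Lin52*. FPKM does not correct for it, and its part was not tested.

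In the direct comparison of NSC with vehicle at 40 h, edgeR called 0 of 7 members and 6 of 15024 genes (0.0399%). At an unadjusted p under 0.05 there were 3 members (*Lin54*, *Lin9* and *Mybl1*), all higher with NSC, beside 19.5% of all tested genes and 9.30% in that direction. *Lin9* and *Lin54* were higher with NSC in every pairing of libraries, as were 10.3% of tested genes. For *Lin54* the difference was 0.63 on the log2 scale (95% confidence interval 0.26 to 1.00, adjusted p = 0.102), and for *Lin9* it was 1.12 (0.29 to 1.96, adjusted p = 0.156). DESeq2 called 1 member, *Lin54* (log2 0.64, adjusted p = 0.0235), where it called 6.12% of the genes it gave an adjusted p. Without NSC replicate 1, edgeR called *Lin9* (log2 1.42, adjusted p = 0.0257) and *Lin54* (log2 0.69, adjusted p = 0.0407), beside 6.46% of tested genes. After GC correction the difference of *Lin54* was 0.34 (adjusted p = 0.499) and that of *Lin9* 0.87 (adjusted p = 0.483). Their transcripts have a GC content of 41.8% and 42.5%, lower than the median of tested genes. The part of GC content in these values was not tested further.

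**Figure D3:**
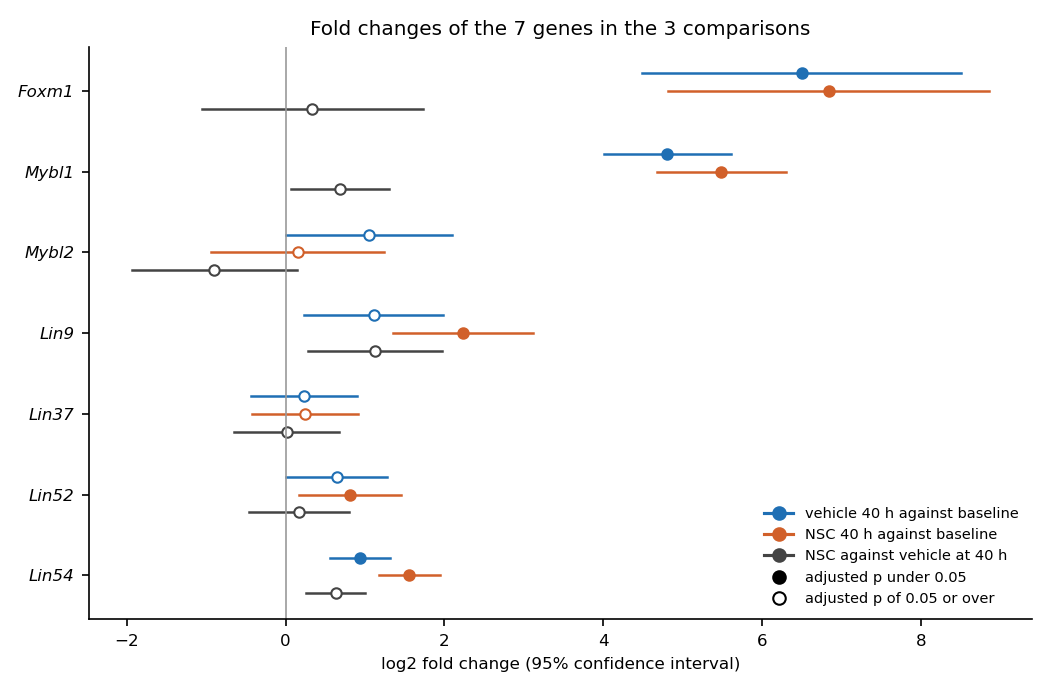
Log2 fold changes of the 7 genes from edgeR's quasi-likelihood fit in the 3 comparisons, with bars for 95% confidence intervals. Filled points have an adjusted p under 0.05. With baseline as reference 3 genes are filled with vehicle and 5 with NSC, and no gene is filled for NSC against vehicle.

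Of 10 genes listed for MuvB and DREAM partners, 3 rose and 1 fell with vehicle (12.7% of tested genes rose and 11.0% fell), and 4 rose and 2 fell with NSC (18.2% and 16.5%). The list also holds the core subunit gene *Rbbp4*, and *Rb1*, whose protein is not among the DREAM subunits named above. The median log2 fold change of the 10 was 0.07 with vehicle and 0.18 with NSC. The pocket proteins parted: *Rbl1* (p107) went from 1.26, 0.794 and 1.42 CPM at baseline to 10.9, 11.1 and 9.82 CPM with vehicle and 7.53, 22.1 and 16.9 CPM with NSC. *Rbl2* (p130) went from 37.2, 42.7 and 34.6 CPM to 23.6, 24.5 and 24.7 CPM and to 24.4, 26.8 and 22.3 CPM. Every remnant was above baseline for *Rbl1* and below it for *Rbl2*. *Rbl1* rose by 3.19 ± 0.37 (adjusted p = 0.000284) and 3.74 ± 0.38 (adjusted p = 8.41e-05) on the log2 scale in the vehicle and NSC remnants, and *Rbl2* fell by 0.65 ± 0.14 (adjusted p = 0.00502) and 0.64 ± 0.14 (adjusted p = 0.00394), all by edgeR. Per length, *Rbl2* was 21.02 to 46.2 times *Rbl1* at baseline, 1.86 to 2.17 times with vehicle and 1.04 to 2.79 times with NSC.

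*Tfdp1*, which encodes the E2F dimer partner DP1, rose with vehicle (log2 0.87 ± 0.15, adjusted p = 0.00186) and with NSC (log2 1.03 ± 0.15, adjusted p = 0.000459). Of the repressor E2Fs, *E2f4* was called with vehicle (log2 0.48 ± 0.15, adjusted p = 0.0321) and not with NSC (log2 0.19 ± 0.15, adjusted p = 0.336), while *E2f5* was called with NSC (log2 1.24 ± 0.22, adjusted p = 0.00151) and not with vehicle (log2 0.63 ± 0.22, adjusted p = 0.0575). Their differences between NSC and vehicle, -0.29 for *E2f4* and 0.61 for *E2f5*, did not pass the test (adjusted p = 0.290 and 0.166, edgeR). The *E2f4* call with vehicle was kept in 11 of 19 alternatives (adjusted p up to 0.121), *E2f4* was called with NSC after GC correction (log2 0.46, adjusted p = 0.0226), and *E2f5* was called with vehicle in 4 alternatives. Of the co-repressors, *Hdac1* rose by 0.50 ± 0.17 (adjusted p = 0.0353) and *Sin3b* fell by 0.60 ± 0.15 (adjusted p = 0.00975) with NSC, and with vehicle they had log2 values of 0.23 and -0.43 and were not called. The *Hdac1* call was kept in 11 of 19 alternatives, with log2 0.38 and an adjusted p of 0.144 without NSC replicate 2, and that of *Sin3b* was lost after GC correction (log2 -0.34, adjusted p = 0.0786). *Rbbp4*, the histone-binding subunit of the core, had log2 values of -0.16 with vehicle (adjusted p = 0.534) and 0.14 with NSC (adjusted p = 0.565). *Tfdp2* (DP2) and *Rb1*, the retinoblastoma gene, were not called either, with log2 values of -0.27 and -0.08 with vehicle and of -0.16 and 0.17 with NSC. Between NSC and vehicle 0 of the 10 listed genes were called by edgeR or DESeq2. An unadjusted p under 0.05 in edgeR was seen for 1 (*E2f5*), beside 19.5% of tested genes. Without NSC replicate 1, 2 were called (*E2f5* and *Rbl1*), beside 6.46% of tested genes.

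Among 14 cyclins, kinases and ubiquitin regulators that act on FOXM1, B-MYB or MuvB, 8 rose with vehicle (12.7% of tested genes) and 8 with NSC (18.2%), with medians of 1.81 and 1.69 on the log2 scale. Of the 14, 6 (*Ccna2*, *Cdk1*, *Ccnb1*, *Plk1*, *Cdc25b* and *Melk*) are also among the late cell cycle genes described next. With vehicle the smallest p-values belonged to *Melk*, a mitotic kinase that phosphorylates FOXM1, *Ccnd1* (cyclin D1), *Ccna2* (cyclin A2), *Cdc25b* and *Cdk1*, and with NSC *Ccnb1* took the place of *Ccnd1*. *Cdk1* had 1.19 to 1.42 CPM at baseline and 48.8 to 58.1 CPM with vehicle. With NSC it had 23.9, 165.5 and 183.6 CPM, so that replicate 1 was below and the others above every vehicle library. *Ccnb1* (cyclin B1) rose by 8.89 ± 1.24 with NSC (adjusted p = 0.00196, edgeR). Of 3 further genes, named here for their roles after their values were seen, *Dyrk1a*, the kinase that phosphorylates LIN52, was not called, with log2 values of 0.16 with vehicle (adjusted p = 0.465) and 0.02 with NSC (adjusted p = 0.932). *Ccnf* (cyclin F) and *Fzr1* (CDH1), listed among the ubiquitin regulators, were not called either. Between NSC and vehicle 0 of 14 were called by edgeR or DESeq2, and 0 had an unadjusted p under 0.05 in edgeR (19.5% of tested genes). Without NSC replicate 1, 4 of the 14 were called, beside 6.46% of tested genes.

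Genes known as targets of the activating complexes rose alongside *Foxm1*. Of 35 late cell cycle genes bound or activated by MYB-MuvB or FOXM1, 34 rose with vehicle (12.7% of tested genes) and 35 with NSC (18.2%), with medians of 6.06 and 6.80 on the log2 scale against 0.01 for all tested genes. *Top2a*, the DNA topoisomerase of dividing cells, rose by 6.51 ± 0.59 with vehicle (adjusted p = 0.000285) and 7.03 ± 0.60 with NSC (adjusted p = 0.000147). The mitotic checkpoint kinases *Ttk* and *Bub1* rose by 6.52 and 6.83 with vehicle and by 7.38 and 7.66 with NSC, and *Aurkb*, of the chromosomal passenger complex, by 7.15 and 7.56 (adjusted p at most 0.000778 for these 3, edgeR). Their folds rest on few baseline counts (2, 5 and 4 for *Ttk*, 4, 2 and 0 for *Bub1*, 5, 3 and 3 for *Aurkb*), as does that of *Ccnb1* (3, 7 and 5). Without baseline replicate 1 the values of *Bub1* were 7.75 with vehicle and 8.58 with NSC. The 1 gene not called with vehicle was *Cks2*, a binding partner of cyclin-dependent kinases (log2 0.75 ± 0.38, adjusted p = 0.182).

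The late genes showed the same division among the NSC libraries as *Foxm1*. In all 35, NSC replicate 1 was below every vehicle remnant, where 36.3% of tested genes had that order, and NSC replicates 2 and 3 were above every vehicle remnant, where 21.8% of tested genes did. Their summed level was 965, 937 and 739 CPM with vehicle. It was 345, 2693 and 2321 CPM with NSC. NSC replicate 1 held a median of 15.0% of the mean of the other NSC libraries in these genes, from 5.09% for *Cdc20*, the activator of the anaphase-promoting complex, to 30.7% for *Kif23*. For *Foxm1* it held 20.3%, for *Lin37* 37.8%, for *Lin9* 44.8%, for *Mybl1* 66.2%, for *Lin52* 75.02%, for *Lin54* 86.7% and for *Mybl2* 150%. The median over all tested genes was 97.4%. The macrophage and endothelial marker sums of this library, given above, were the highest of the 3 NSC libraries. So were those of stellate cells (352.6 CPM against 213.5 and 226.6) and of neutrophils and monocytes (20.2 CPM against 14.2 and 11.6), while its hepatocyte sum (94090 CPM) was the lowest. Its cholangiocyte sum (82.8 CPM) lay between the others (121.5 and 79.0). Its stellate and hepatocyte sums lay within the vehicle ranges at 40 h (280.9 to 366.9 and 90970 to 128000 CPM). The endothelial and the neutrophil and monocyte sums lay above those ranges (109.7 to 176.8 and 9.93 to 15.1 CPM), as did the macrophage sum. Their part in these values was not tested.

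In the direct comparison edgeR and DESeq2 called 0 of the 35 late genes, beside 0.0399% and 6.12% of the genes they tested. The median log2 difference was 0.99. At an unadjusted p under 0.05 in edgeR there was 1 gene (*Cks2*, log2 1.00 ± 0.38), beside 19.5% of tested genes. Without NSC replicate 1, edgeR called 30 of 35, all higher with NSC, with a median of 1.47, beside 6.46% of tested genes called. *Foxm1* itself was not called in that fit (log2 0.78). The number of late genes called between NSC and vehicle was thus decided by 1 library. That library was singled out after the data were seen and lay below every vehicle remnant in all 35 genes. The 30 calls without it are therefore no independent test of NSC.

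**Figure D4:**
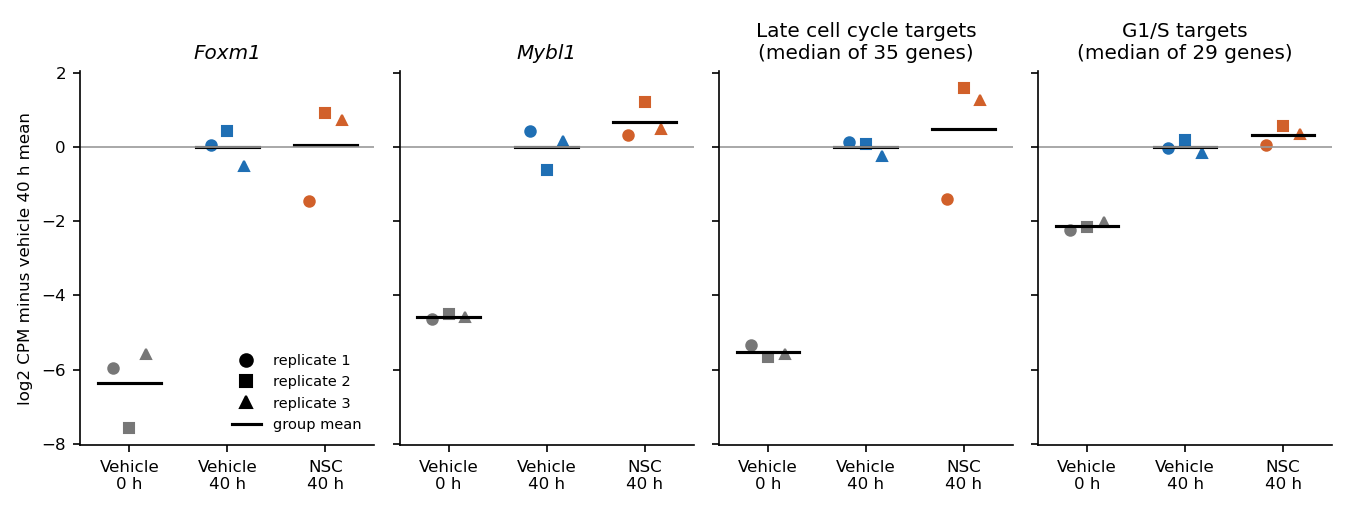
Log2 CPM (prior count 2) of *Foxm1* and *Mybl1*, and the medians of 35 late cell cycle genes and 29 G1/S genes, each minus its mean in the vehicle remnants. Points are libraries, shapes are replicate numbers and bars are group means. NSC replicate 1 is at -1.46 for *Foxm1* and -1.40 for the late genes, but at 0.32 for *Mybl1* and 0.07 for the G1/S genes.

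Genes of the G1/S transition, which DREAM and E2F repress in quiescence, also rose. All 29 were called higher with vehicle (median log2 2.15, 12.7% of tested genes called higher) and all 29 with NSC (median 2.54, 18.2%). All 29 lay above baseline without overlap in both remnant groups, as did 24.2% and 24.0% of tested genes. *Orc1* had 0 counts in all 3 baseline libraries, so no fold is given for it. *Mcm5* and *Mcm6*, subunits of the replicative helicase, rose by 3.999 ± 0.22 and 3.03 ± 0.18 with vehicle and by 3.82 ± 0.22 and 3.42 ± 0.19 with NSC (adjusted p at most 3.23e-06, edgeR). *Rrm1*, a subunit of ribonucleotide reductase, rose by 2.10 with vehicle and 2.54 with NSC. *Uhrf1*, which maintains DNA methylation, rose by 5.31 ± 0.42 with vehicle, and *Pcna*, the sliding clamp, by 1.55 ± 0.13 with NSC. The summed level of the 29 was 533, 629 and 531 CPM with vehicle and 592, 808 and 730 CPM with NSC, so that NSC replicate 1 lay within the vehicle range. In 7 of the 29 NSC replicate 1 was lower than every vehicle remnant (24.1%, against 36.3% of tested genes), and in 17 it was lower than both other NSC libraries (58.6%, against 41.0%). It held a median of 79.96% of the mean of those libraries, from 41.2% for *Gins2* to 147% for *Ccne2*.

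Between NSC and vehicle edgeR called 0 of 29 and DESeq2 2 (6.12% of the genes it tested), and 9 had an unadjusted p under 0.05 (19.5% of tested genes). *Ccne2*, which encodes cyclin E2, had a log2 difference of 1.07 ± 0.32 (adjusted p = 0.123). Without NSC replicate 1, 6 of 29 were called, beside 6.46% of tested genes.

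Of 16 listed relatives in the forkhead and MYB families, 15 were tested, all of them forkhead genes. With vehicle 4 rose and 3 fell, and with NSC 3 rose and 3 fell, *Foxm1* itself included. Over all tested genes 12.7% rose and 11.0% fell with vehicle, and 18.2% rose and 16.5% fell with NSC, so the counts with NSC were near the background. *Foxo3*, a forkhead factor of quiescent cells, fell from 51.7 to 60.3 CPM at baseline to 19.1 to 25.4 CPM with vehicle and 19.5 to 21.3 CPM with NSC. Its log2 changes were -1.33 ± 0.14 (adjusted p = 0.00012) and -1.46 ± 0.14 (adjusted p = 5.06e-05) by edgeR. *Foxn3* fell by 1.27 with vehicle and 0.73 with NSC, *Foxn2* rose by 0.67 and 1.01, *Foxk2* rose by 0.61 with vehicle and *Foxa1*, a liver pioneer factor, rose by 1.05 with NSC. None of these other relatives reached the size of the *Foxm1* change, and 0 were called between NSC and vehicle by edgeR or DESeq2. An unadjusted p under 0.05 in edgeR was seen for 5, beside 19.5% of tested genes.

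Across the 9 libraries, Pearson's r of log2 CPM was 0.95 between *Foxm1* and *Mybl1*, 0.95 between *Mybl1* and *Lin54*, 0.91 between *Lin9* and *Lin54* and 0.89 between *Foxm1* and *Lin54*. *Lin37* had r of at most 0.41 with any other member, and *Mybl2* of at most 0.37. These coefficients describe 3 groups of 3 libraries and mostly carry the step from baseline to remnant. Among all tested genes, the 5 most like *Foxm1* were *Apitd1*, *Cstf3*, *Kif14*, *Espl1* and *Ankle1* (r from 0.993 to 0.995), at a prior count of 2. *Espl1* left these 5 at a prior count of 0.5, and *Cstf3* and *Ankle1* left them at 5. *Kif14* is a kinesin of cytokinesis and *Espl1* encodes separase. Those most like *Mybl1* were *Orc1*, a subunit of the origin recognition complex, *Gnl3l*, *Ddias*, *Dnajc10* and *Fignl1* (0.991 to 0.998).

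The genes most like *Lin54* were *Med14*, *Syncrip*, *Mtbp*, *Eri1* and *Twsg1* (r from 0.978 to 0.992), and those most like *Lin9* were *Foxa1*, *Nucks1*, *Slc35f2*, *Haus1* and *Pms2* (0.970 to 0.974). For *Mybl2* they were *Iars* and *Cars*, which encode aminoacyl-tRNA synthetases, *Igsf10*, *Dbn1* and *Lamc1* (0.916 to 0.958). *Pms2* left the genes named for *Lin9* at a prior count of 5, and *Lamc1* those for *Mybl2* at 0.5. *Lin37* was followed most closely by *Grtp1*, *Bax*, *Nudc*, *Gm6444* and *Elp2* (0.939 to 0.953), and *Lin52* by *Foxq1*, *C630043F03Rik*, *Gm5903*, *Phlda1* and *Fbxl14* (0.955 to 0.970).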

How the data were processed

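Whole-liver mRNA (TruSeq stranded kit) of 9 mouse liver samples was examined. Per the labels, the authors used MAP-RSeq, with STAR 2.6.1 for alignment, assigned reads to genes with Subread 1.5.1 (featureCounts), and deposited raw counts without normalization. The FPKM values they deposited adjust the counts for gene length and depth. The sources name the build hg38, but identifiers and coordinates in the table are mouse (GRCm38). The strand setting of the counting is not given in the sources used here. 0 columns were left unused.

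The members and lists were chosen with earlier results of these data known. Counts were scaled by TMM factors and filtered by filterByExpr, and all 9 libraries entered 1 robust quasi-likelihood fit in edgeR 4.0.16 (R 4.3.3), with 3 contrasts, each adjusted over 15024 genes. SE is the absolute log2 fold change divided by the square root of F. The procedure was tested on simulated counts for vehicle against baseline only, with no library set apart from its group. That test does not bear on the calls between NSC and vehicle. Named are all members, all genes listed for MuvB and DREAM partners, the 5 smallest p-values per other list and comparison, the 5 genes most like each member, and overlapping genes or those within 1 kb of a start. Some genes that this rule names are not reported here. Alternatives were DESeq2 1.42.0, other scaling and filters, only the groups compared, a replicate block, GC correction (GC content known for 99.2% of tested genes), stricter thresholds and each library left out. The fits without NSC replicate 1 were singled out after seeing the data. Counts of 8 to 63 limit *Mybl2*. The floor of 3 counts covers counting error only, and the 95% confidence intervals come from the fit over replicates.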

Additional observations from a re-analysis of the deposited data

How the results depend on the processing

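The direction and call of *Foxm1*, *Mybl1* and *Lin54* against baseline held in every alternative that kept them, except that *Lin54* with vehicle does not reach a log2 change of 1.5. With NSC the log2 change of *Lin54* was 1.56 and ranged from 1.06 to 1.69 over the alternatives, so it did not always pass that limit. Requiring 10 counts in every library removed *Foxm1* and *Mybl2* and lowered the late genes called to 16 with vehicle and 17 with NSC, because fewer were tested. Leaving out 1 library gave 3 to 5 members called with vehicle (5 without baseline replicate 2), 4 to 6 with NSC and 0 to 2 between NSC and vehicle (2 without NSC replicate 1), where DESeq2 gave 1. For late genes between NSC and vehicle the range was 0 to 30, for G1/S genes 0 to 6, and DESeq2 called 2 G1/S genes; over all genes 994 were called without NSC replicate 1, 758 by DESeq2, 11 with the replicate block and 6 in the reported fit. Correlations of deviations from group means were -0.0479 to 0.134 between same-numbered libraries and -0.115 to 0.0659 between others. With 3 libraries per group these values cannot decide whether the numbers pair the samples. With the replicate block 4, 5 and 0 members were called, the one gained with vehicle being *Lin9*, and the late genes called were 30, 35 and 0. Small differences that were not called turned sign. After GC correction these were *Lin52* (-0.022), *Rb1* (-0.063), *Tfdp2* (-0.035), *Rbl2* (-0.070), *E2f4* (0.0013) and *Sin3b* (0.11) between NSC and vehicle, and *Rbbp4* (-0.19) and *Rb1* (-0.36) with NSC against baseline. *Lin37* between NSC and vehicle was -0.0026 with only those groups and -0.047 with the replicate block. With 1 library left out, ranges between NSC and vehicle were -0.21 to 0.35 for *Lin37*, -0.042 to 0.78 for *Foxm1*, -0.056 to 0.076 for *Rbl2* and -0.014 to 0.25 for *Tfdp2*, against baseline with NSC -0.078 to 0.42 for *Mybl2* and -0.023 to 0.39 for *Rb1*, and with vehicle -0.13 to 0.012 for *Rb1*. The causes were not tested. FPKM means moved by less than 1 SD with TMM library sizes, except for *Lin54* at baseline (0.863 to 0.894). Depth limits *Mybl2* and the baselines of *Foxm1* and several late genes.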
